A study of Mus musculus with 24 samples.

Results

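Loss of Nrf2 under gastric reflux was examined by setting the oesophagus of Nrf2-null mice with gastric reflux (3 arrays) against that of wild-type mice with gastric reflux (3 arrays). These 6 arrays of the 24 in the series were chosen by their labels, not by any measured value. All 6 samples are labelled male, 12 weeks of age, strain C57BL/6J and whole oesophagus, although their source is also described as oesophageal epithelium. The reflux lasted 4 weeks per the series title, the genotypes are wild type and Nrf2-/-, and no drug is named in either group. How the reflux was produced and which part of the Nrf2 gene was deleted are not stated in the labels. The arrays of a group are called biological replicates, and whether an array stands for 1 mouse is not said. P-values rest on the spread between samples within groups, estimated over all 8 groups together and not from these 6 arrays alone. Every array set oesophageal RNA in the red dye Cy5 against a commercial reference RNA from 11 mouse cell lines in the green dye Cy3, and each value below is the log2 ratio of Cy5 over Cy3. Values are listed for arrays 1, 2 and 3 in that order. The series design names this comparison, and its question is how the absence of Nrf2 alters gene expression in an oesophagus reached by gastric contents.

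Nrf2, encoded by Nfe2l2, is a transcription factor of stress defence. In resting cells the adaptor Keap1 holds it in the cytoplasm and hands it to a ubiquitin ligase for destruction. Electrophiles and oxidants modify Keap1, Nrf2 then reaches the nucleus, pairs with a small Maf protein and binds antioxidant response elements near genes for glutathione synthesis, conjugating enzymes, quinone reductases, thioredoxin recycling, iron handling and NADPH supply. The mouse oesophagus is lined by a keratinised squamous epithelium that divides in its basal layer, and beneath it lie a fibrous and vascular lamina propria and a wall of striated muscle.

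The 6 arrays were not processed side by side. The wild-type arrays shared 1 slide and were scanned on day 2 of 3, whereas the Nrf2-null arrays lay on 2 other slides and were scanned on day 3. No scan day or slide held both genotypes with gastric reflux, so scan day and genotype cannot be told apart within these 6 arrays. A day term can be fitted only through the Nrf2-null arrays without reflux, which span both days. Arrays 1 and 2 of that group were scanned on day 2, and array 3, on another slide, on day 3. Every value with the day block below thus rests on that 1 array of day 3. Skeletal muscle content also varied: the mean log2 ratio of 26 skeletal muscle markers was 0.60, 4.66 and 4.64 on the wild-type arrays and 4.49, 1.59 and 1.74 on the Nrf2-null arrays, so wild-type array 1 and Nrf2-null arrays 2 and 3 were low and the groups overlapped. Nrf2-null array 1 was also dim, with a median Cy5 intensity of 88.2 against 213 to 249 on the other 5. Nrf2-null array 2 is labelled male, but Xist, the RNA of the inactive X chromosome, stood at -1.78 there against -5.32 or less on the other 5 arrays, and the Y-linked gene Ddx3y stood at -4.20 against 0.82 or more. The squamous keratin Krt13 was at 4.91 or more on all 6 arrays, so the labelled tissue carries its marker. Wild-type arrays 2 and 3 correlated at 0.985, more closely than either did with array 1 (0.871 and 0.879). Nrf2-null arrays 2 and 3 correlated at 0.943, and array 1 correlated with them at 0.754 and 0.788. The standard deviation over genes of the difference between 2 arrays of a group was 0.26 to 0.75 in wild type and 0.52 to 1.08 in Nrf2-null. With duodenal reflux it was 0.19 to 0.24 in wild type and 0.21 to 0.69 in Nrf2-null. A spread estimated over all 8 groups may thus be too small for the gastric groups, and their p-values too low.

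**Figure D1:**
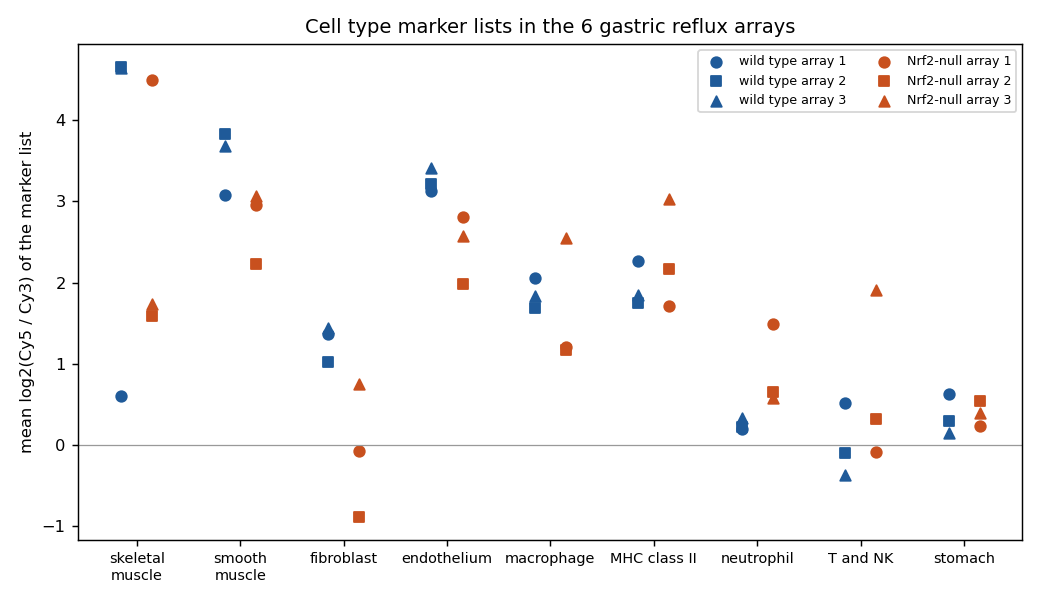
Mean log2 ratio of each cell type marker list on each of the 6 gastric reflux arrays (vertical axis), with wild type in blue, Nrf2-null in orange and a symbol per array. Skeletal muscle ranged from 0.60 to 4.66 with both genotypes at both ends, fibroblast markers were lower on the 3 Nrf2-null arrays, and T and NK cell markers were high on Nrf2-null array 3 alone (1.91).

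Of 20563 genes tested with limma, 2155 were higher in Nrf2-null (10.5%) and 1478 were lower (7.19%), together 17.7%, at a Benjamini-Hochberg adjusted p below 0.05. The median difference over all genes was 0.11. Centring each array on its median in place of loess moved that median to -0.06 and turned the split around, to 684 higher and 1355 lower. A muscle covariate gave 2325 higher (11.3%) and 1924 lower (9.37%), and 95.8% of the genes higher and 97.2% of those lower in the fit without it were called again. A scan day block left 1 gene higher (0.00487%) and 3 lower (0.0146%), and both terms together left 1 higher (0.00488%) and 12 lower (0.0585%). The median standard error was 0.22 without and 0.39 with the day block, under which 1269 genes had an unadjusted p below 0.05 (1545 with both terms). The sign was the same with both terms for 97.5% of the genes called higher and 93.5% of those called lower. A fit of the 6 arrays alone called 1 gene, and 3686 had an unadjusted p below 0.05. Without single arrays the number of calls ran from 1040 (without wild-type array 2) to 5073 (without Nrf2-null array 1), and it was 1209 without wild-type array 3. Without Nrf2-null array 2, whose sex-linked genes go against its label, 1819 genes were higher and 965 lower, and the lists below held 32 lower Nrf2 targets, 18 higher mitosis genes, 16 higher cytokine genes, 7 higher stress genes and 4 lower matrix genes. With the day block 0 members of the mitosis, replication, cytokine, stress, differentiation, matrix, collagen, protease, clock, glycolysis and mitochondrial lists passed.

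Nfe2l2 itself checks the labels. Its probe at 75513917 to 75513976 on chromosome 2 (mm9) read 1.96, 1.45 and 1.62 in wild type and -3.06, -3.72 and -3.81 in Nrf2-null. The groups lay far apart, and the difference of -5.21 ± 0.24 (standard error of the fit, as after every ± below) was a 36.9-fold lower level (limma, adjusted p = 1.80e-08). The second probe, at 75513771 to 75513830, read 1.96, 1.31 and 1.44 in wild type and -5.84, -6.54 and -7.54 in Nrf2-null. The third probe, at 75529947 to 75530006, read -0.90, -1.13 and -1.48 in wild type and -0.92, -0.40 and -1.25 in Nrf2-null, so the groups overlapped there. If that probe lies outside the deleted part, it checks nothing.

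Among 12 genes for Nrf2 and its regulators, 2 were higher and 6, Nfe2l2 included, were lower in Nrf2-null. The shares over all genes were 10.5% and 7.19%. The median difference was -0.66, and -0.28 with the day and muscle terms. It was 0.12 with duodenal reflux, -0.07 without reflux and -0.28 with mixed reflux. Maff, a small Maf partner, read 0.60, -0.05 and -0.29 in wild type and 0.94, 1.09 and 1.01 in Nrf2-null, a rise of 0.93 ± 0.18 (limma, adjusted p = 0.0056) with no overlap. Rbx1, the ring subunit of the ligase that takes up Nrf2, rose by 0.66 ± 0.14 (limma, adjusted p = 0.0067). Keap1 read 1.05, 0.88 and 1.29 in wild type and 0.35, -1.06 and -0.45 in Nrf2-null. Its groups did not overlap and it fell by 1.46 ± 0.40 (limma, adjusted p = 0.021), yet with the day and muscle terms the difference was -0.01. Mafg, another partner, fell by 1.29 ± 0.32 and Bach1, a repressor that competes at the same elements, fell by 1.64 ± 0.52, and with both terms they stood at -0.19 and 0.13. Sqstm1, a carrier that binds Keap1 and is itself an Nrf2 target, fell by 1.03 ± 0.24 and stood at -0.97 with both terms. Mafk fell by 0.48 ± 0.13. The count of lower genes in this list was 1 without wild-type array 2, 1 without wild-type array 3 and 2 without Nrf2-null array 2.

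The Nrf2 target list held 60 genes, of which 56 were tested. In Nrf2-null oesophagus 28 of the 56 were lower and 0 higher, against 7.19% of all genes lower, and the median difference was -0.80. At an unadjusted limma p below 0.05 these counts were 36 and 0. On 31 of the 56 the 3 Nrf2-null arrays all lay below the 3 wild-type arrays, against 9.01% of all genes. The count of lower targets was 33 with the muscle covariate (9.37% of all genes), 2 with the day block (0.0146%) and 6 with both terms (0.0585%), but the median stayed at -0.83, -0.81 and -0.97. With both terms 52 of the 56 differences were negative. Leaving out each array in turn gave 23 to 32 lower targets, and median centring gave 17.

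**Figure D2:**
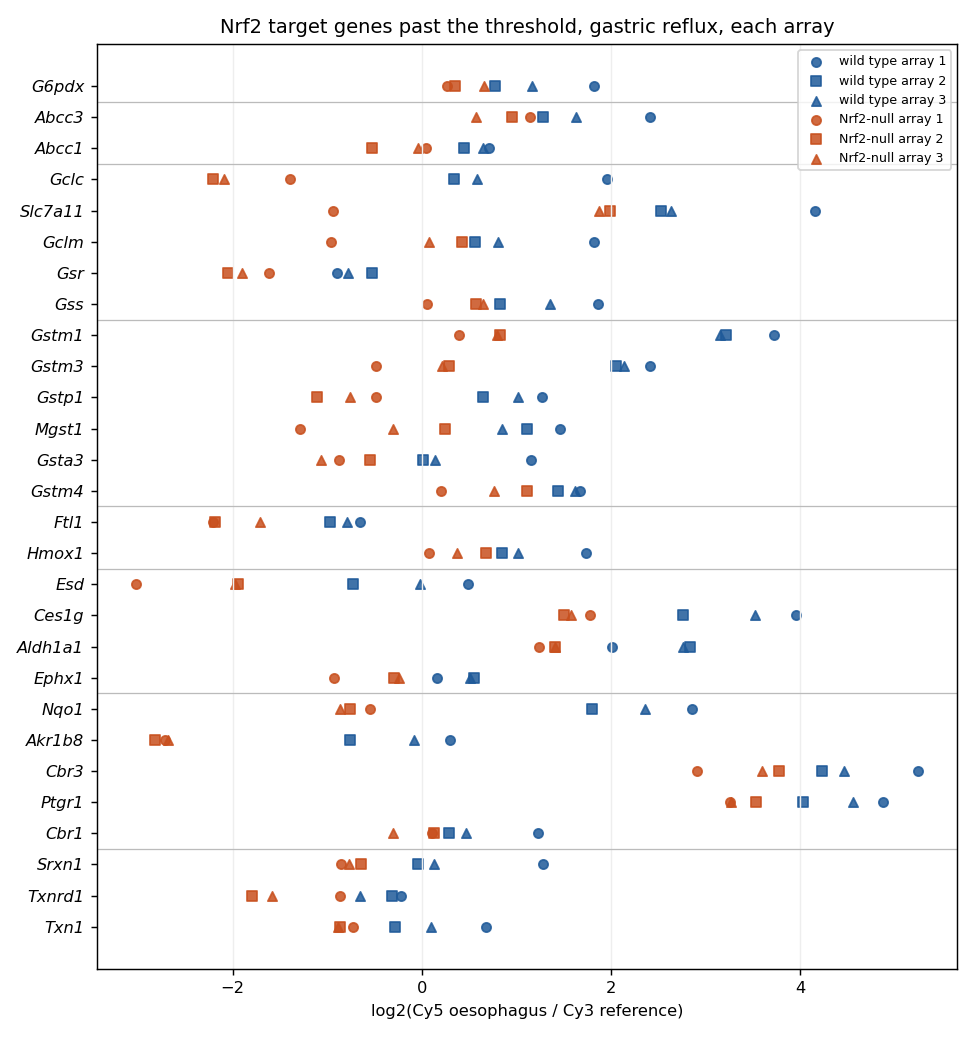
Log2 ratio on each array (horizontal axis) of the 28 Nrf2 target genes that passed the threshold under gastric reflux, wild type in blue and Nrf2-null in orange, with grey lines between functional roles. All 28 genes show the 3 orange symbols to the left of the 3 blue ones, and the gap is wide for Nqo1, Gstm1, Gstm3, Gclc and Akr1b8.

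Quinone, aldo-keto and carbonyl reductases, which remove reactive carbonyls and quinones, had 5 of 9 tested members lower, against 7.19% of all genes. Nqo1, a quinone reductase widely used as a readout of Nrf2, read 2.85, 1.79 and 2.36 in wild type and -0.55, -0.76 and -0.86 in Nrf2-null. All wild-type arrays were above all Nrf2-null arrays, and the fall of 3.06 ± 0.21, or 8.34-fold, passed the test (limma, adjusted p = 1.88e-06) and passed it with both terms (-3.31 ± 0.34, adjusted p = 0.0019). Akr1b8, an aldose reductase family member, read 0.30, -0.76 and -0.08 against -2.72, -2.82 and -2.69. Its Nrf2-null arrays lay close together and below all wild-type arrays, and it fell by 2.56 ± 0.22 (limma, adjusted p = 2.04e-05; 0.038 with both terms). Ptgr1, which inactivates prostaglandins and alkenals, fell by 1.14 ± 0.19, Cbr3, a carbonyl reductase, by 1.22 ± 0.24, and Cbr1, its paralogue, by 0.68 ± 0.20. Ptgr1 and Cbr3 also passed with both terms (limma, adjusted p = 0.047 and 0.032), while Cbr1 lost its call without wild-type array 1, wild-type array 3 or Nrf2-null array 3.

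Glutathione transferases join glutathione to electrophiles, and 6 of 13 tested were lower, against 7.19% of all genes. Gstm1 read 3.72, 3.22 and 3.15 in wild type and 0.39, 0.82 and 0.80 in Nrf2-null. The groups were more than 2 log2 units apart, and Gstm1 fell by 2.69 ± 0.16, or 6.46-fold (limma, adjusted p = 2.95e-07; 1.08e-05 with both terms). Gstm3 fell by 2.20 ± 0.19, from 2.42, 2.05 and 2.14 to -0.48, 0.29 and 0.21 (limma, adjusted p = 2.04e-05; 0.0036 with both terms). Gstp1 fell by 1.76 ± 0.18, Mgst1 (a membrane-bound member) by 1.59 ± 0.34, Gsta3 by 1.27 ± 0.22 and Gstm4 by 0.88 ± 0.23. Other members did not pass: Gsta1, Gsta2 and Gsta4 stood at -0.30 ± 0.40, 0.08 ± 0.30 and -0.28 ± 0.31, and Gstm2 at 0.19 ± 0.20. Genes of this family are close in sequence, and how far their probes share targets was not tested.

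Glutathione synthesis and recycling had 5 of 6 members lower, against 7.19% of all genes, with a median of -1.17. Gclc, which with Gclm forms the ligase for the slowest step of glutathione synthesis, read 1.96, 0.34 and 0.58 in wild type and -1.40, -2.21 and -2.09 in Nrf2-null. There was no overlap, and it fell by 2.86 ± 0.36, or 7.25-fold (limma, adjusted p = 0.000803). Its modifier subunit Gclm fell by 1.21 ± 0.41 (limma, adjusted p = 0.049) from 1.82, 0.56 and 0.80 to -0.97, 0.43 and 0.08, with wild-type array 2 and Nrf2-null array 2 almost touching. That call was lost when any single array other than Nrf2-null array 2 was left out. Slc7a11, which imports the cystine that glutathione is built from, read 4.15, 2.53 and 2.64 against -0.94, 1.99 and 1.87. Most of its fall of 2.13 ± 0.60 lay in the highest wild-type array and the lowest Nrf2-null array, and the call was lost without wild-type array 1 or 3 or Nrf2-null array 1, where the range over single omissions was -2.64 to -1.17. Gsr, the reductase that regenerates glutathione, fell by 1.12 ± 0.15 from -0.90, -0.53 and -0.78 to -1.62, -2.05 and -1.90. Gss, glutathione synthetase, fell by 0.92 ± 0.24, and Gpx2, a peroxidase of epithelia, stood at 0.80 ± 0.44 and did not pass.

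Counts of lower genes in this paragraph stand beside 7.19% of all genes lower. The thioredoxin arm had 3 of 5 lower: Srxn1 (sulfiredoxin) by 1.21 ± 0.26, Txnrd1 (thioredoxin reductase) by 1.02 ± 0.23 and Txn1 (thioredoxin) by 0.99 ± 0.20. Prdx1 and Prdx6, which reduce peroxides, stood at -0.05 ± 0.53 and -0.12 ± 0.16. Hydrolases and dehydrogenases had 4 of 8 lower. Esd, esterase D, read 0.49, -0.72 and -0.02 against -3.02, -1.94 and -1.97, a fall of 2.23 ± 0.33 (limma, adjusted p = 0.00149) with no overlap. Ces1g, a carboxylesterase, fell by 1.79 ± 0.24, Aldh1a1, which makes retinoic acid from retinal, by 1.18 ± 0.19, and Ephx1, an epoxide hydrolase, by 0.89 ± 0.20. For haem and iron, 2 of 6 were lower: Ftl1, the ferritin light chain, by 1.23 ± 0.19 and Hmox1, which breaks down haem, by 0.83 ± 0.20. Both export pumps that passed, Abcc1 and Abcc3, fell by 0.78 ± 0.16 and 0.88 ± 0.23. NADPH supply had the smallest median of the roles (-0.31), with 1 of 6 lower, G6pdx (the entry enzyme of the pentose phosphate pathway), by 0.83 ± 0.20, and with Tkt at -0.60 ± 0.20, Pgd at -0.35 ± 0.19 and Me1 at -0.27 ± 0.34.

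Promoters of lower targets were searched for the core of the antioxidant response element. Sequences are RefSeq promoters (GRCm38.p6) reaching from 250 bases before the start of a gene to 50 after it, and the motif was TGACNNNGC on either strand. A promoter was listed for 46 targets, and 13 of these held the motif, or 28.3%, and of 23 lower targets 6 held it, or 26.1%. Among all 32851 promoters 12.4% held it, and among the tested genes with a promoter 16% did, as did 14.7% of the genes called higher and 16.7% of those called lower. The 250 bases before the start are shown for the 5 lower targets with the motif in that stretch, and for Prdx1, which has the motif but stood at -0.05. In Srxn1, the other lower target with the motif, it lay after the start. Capitals mark the motif, and each line reads 5′ to 3′ on the gene's strand. The stretches are chr3:122245307-122245556 (plus strand) for Gclm, chr1:21240335-21240584 (plus) for Gsta3, chr6:138140277-138140526 (plus) for Mgst1, chr10:82858956-82859205 (plus) for Txnrd1, chrX:74428881-74429130 (minus) for G6pdx and chr4:116685349-116685598 (plus) for Prdx1.
Gclm: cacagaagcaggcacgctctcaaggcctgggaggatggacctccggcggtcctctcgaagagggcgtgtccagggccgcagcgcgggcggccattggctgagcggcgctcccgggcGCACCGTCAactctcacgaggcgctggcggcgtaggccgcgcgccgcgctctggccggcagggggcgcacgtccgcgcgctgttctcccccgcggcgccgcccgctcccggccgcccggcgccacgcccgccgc
Gsta3: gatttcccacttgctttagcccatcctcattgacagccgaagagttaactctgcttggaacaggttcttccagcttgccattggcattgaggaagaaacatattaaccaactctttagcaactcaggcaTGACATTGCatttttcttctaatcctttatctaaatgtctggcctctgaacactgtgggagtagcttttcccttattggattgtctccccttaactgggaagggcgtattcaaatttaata
Mgst1: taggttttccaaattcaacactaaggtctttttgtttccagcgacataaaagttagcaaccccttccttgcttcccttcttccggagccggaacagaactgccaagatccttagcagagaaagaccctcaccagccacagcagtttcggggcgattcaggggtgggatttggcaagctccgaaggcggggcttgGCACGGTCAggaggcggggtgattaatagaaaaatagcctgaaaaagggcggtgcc
Txnrd1: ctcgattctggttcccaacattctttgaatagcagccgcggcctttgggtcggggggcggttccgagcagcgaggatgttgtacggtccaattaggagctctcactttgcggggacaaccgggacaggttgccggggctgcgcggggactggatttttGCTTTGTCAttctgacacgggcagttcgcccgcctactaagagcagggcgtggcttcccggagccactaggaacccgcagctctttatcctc
G6pdx: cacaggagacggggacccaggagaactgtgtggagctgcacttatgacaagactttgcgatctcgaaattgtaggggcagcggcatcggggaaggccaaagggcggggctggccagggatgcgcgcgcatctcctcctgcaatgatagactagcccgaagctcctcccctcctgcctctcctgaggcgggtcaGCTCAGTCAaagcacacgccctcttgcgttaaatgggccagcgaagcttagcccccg
Prdx1: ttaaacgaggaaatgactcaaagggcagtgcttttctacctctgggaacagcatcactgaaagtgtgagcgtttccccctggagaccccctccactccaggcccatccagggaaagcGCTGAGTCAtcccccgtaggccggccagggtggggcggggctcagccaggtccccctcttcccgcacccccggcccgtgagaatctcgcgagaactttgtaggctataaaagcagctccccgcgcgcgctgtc
A match is a string of letters and not a measured site, and promoters without one may hold elements outside this window.

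Genotype differences in other conditions come from other arrays and were compared gene by gene. Under duodenal reflux, where both genotypes were scanned on day 3, 15 of the 56 targets were lower and 1 higher, against 0.681% and 1.19% of all genes, with a median of -0.81. Without reflux the median was -0.53. With mixed reflux, for which the 3 Nrf2-null arrays repeat each other and count as 1 sample, it was -0.72. Gstm1 differed by -2.62 under duodenal reflux and -2.45 without reflux, Nqo1 by -2.50 and -2.99, and Gstm3 by -2.40 and -1.90, set beside -2.69, -3.06 and -2.20 with gastric reflux. For 4 of the 56 targets the gastric difference departed from the duodenal one, 1 above it and 3 below. The shares over all genes were 0.793% and 0.725%. Akr1b8 was 2.56 lower with gastric reflux but differed by -0.28 with duodenal reflux, and the difference between them was -2.28 ± 0.31 (limma, adjusted p = 0.0095). Gsr fell with gastric reflux and was 0.73 higher with duodenal reflux (limma, adjusted p = 0.024), which made a difference of -1.85 ± 0.22 (limma, adjusted p = 0.00257). Aldh1a1 was at -0.05 with duodenal reflux (difference -1.13 ± 0.27, limma, adjusted p = 0.049). Akr1c18 was not well above background on the 6 gastric arrays and was 3.12 lower with duodenal reflux, so its difference of 3.01 comes from the duodenal arrays.

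**Figure D3:**
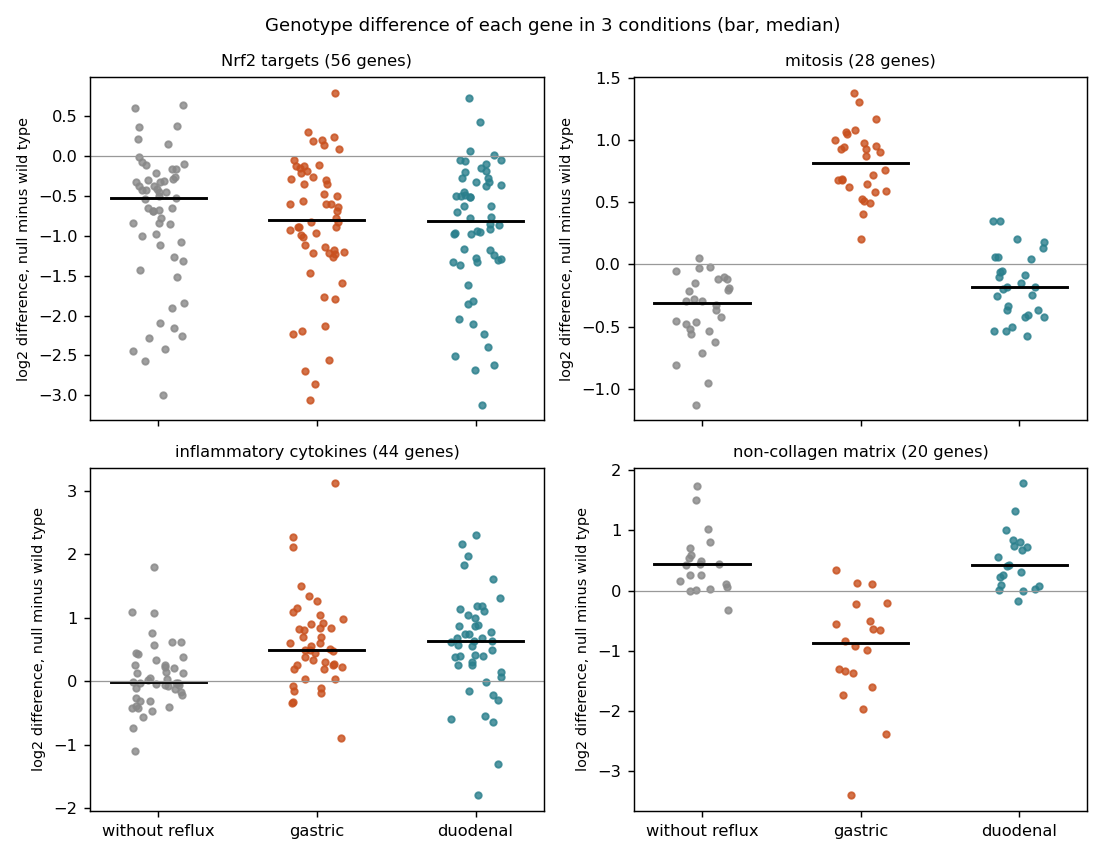
Genotype difference (Nrf2-null minus wild type, log2, vertical axis, scaled separately in each panel) of each gene in 4 lists without reflux, with gastric and with duodenal reflux, with a bar at the median. Targets had medians of -0.53, -0.80 and -0.81, mitosis genes had -0.31, 0.81 and -0.18, and matrix genes had 0.44, -0.87 and 0.42.

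Genes of mitosis were higher in Nrf2-null oesophagus with gastric reflux. Of 28 mitosis genes 20 were higher and 0 lower (27 and 0 at an unadjusted limma p below 0.05), against 10.5% of all genes higher, and all 28 differences were positive, with a median of 0.81 against 0.11 over all genes. Cenpa, the histone H3 variant of centromeres, read -1.54, -2.11 and -2.30 in wild type and -0.70, -0.37 and -0.73 in Nrf2-null, a rise of 1.38 ± 0.20 or 2.61-fold (limma, adjusted p = 0.00144) without overlap. Bub1, a kinase of the spindle checkpoint, read -4.00, -4.65 and -4.83 against -2.86, -3.34 and -3.35 and rose by 1.31 ± 0.20 (limma, adjusted p = 0.00152). Aurkb, the kinase of the chromosomal passenger complex, rose by 1.07 ± 0.20, Nuf2, a kinetochore protein, by 0.93 ± 0.17, and Foxm1, the transcription factor of late cell cycle genes, by 0.98 ± 0.18. Mki67 and Top2a, markers of dividing cells, stood at 0.69 and 0.20 and did not pass.

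For 12 of the 28 mitosis genes the genotype difference with gastric reflux exceeded that without reflux, against 1.05% of all genes. For 6 it exceeded that with duodenal reflux, against 0.793%. The medians in those conditions were -0.31 and -0.18, whereas with mixed reflux (1 Nrf2-null sample) the median of the genotype difference was 0.52, above 0 as with gastric reflux. The gastric and mixed differences were not tested against each other. Cenpa differed by -0.48 without reflux (difference between conditions 1.86 ± 0.31, limma, adjusted p = 0.013), and Nuf2 by -0.36 with duodenal reflux (1.30 ± 0.24, limma, adjusted p = 0.022). With the day and muscle terms the median over the list was 0.58 with all 28 positive, and 0 passed. The count fell to 13 without wild-type array 2 and 11 without wild-type array 3, and under median centring 1 passed, with a median of 0.56.

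Of 24 DNA replication genes 9 were higher and 0 lower (13 and 0 at an unadjusted limma p below 0.05), against 10.5% of all genes higher, with a median of 0.42. The median was -0.13 with duodenal reflux, -0.06 without reflux and 1.19 with mixed reflux. Ccne1, the cyclin that starts DNA synthesis, read -1.31, -1.82 and -1.64 against -0.70, -0.71 and -0.48, a rise of 0.96 ± 0.17 (limma, adjusted p = 0.0031). Uhrf1, which maintains DNA methylation, rose by 0.98 ± 0.19, Gins1, of the replicative helicase, by 0.91 ± 0.19 and Tk1, thymidine kinase, by 0.64 ± 0.15. The count was 3 without wild-type array 2 or 3 and 0 under median centring.

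Inflammatory cytokine genes were higher in 15 of 44 cases and lower in 0, against 10.5% of all genes higher, with a median of 0.50. Il1b, a cytokine of the inflammasome, read -0.97, -1.87 and -1.46 in wild type and 4.56, -0.12 and 0.60 in Nrf2-null. The groups did not overlap, but Nrf2-null array 1 was far above the other two, and the rise of 3.11 ± 0.80 (limma, adjusted p = 0.016) was 1.67 without that array and lost its call without wild-type array 2 or 3. Zc3h12a, an RNase that limits cytokine messages, read 2.38, 1.36 and 1.38 against 4.67, 3.61 and 3.16 and rose by 2.11 ± 0.41 (limma, adjusted p = 0.00446). Nfkbiz, a nuclear cofactor of NF-kB, rose by 1.50 ± 0.29, and Icam1, which holds leukocytes at the vessel wall, rose by 1.16 ± 0.24. Cxcl16, a membrane-bound chemokine, read 2.63, 1.75 and 1.65 in wild type and 3.31, 2.91 and 3.83 in Nrf2-null, with no overlap, and rose by 1.34 ± 0.30 (limma, adjusted p = 0.00858).

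Within that list the interleukin 1 family had 5 of 11 higher: besides Il1b these were Il1r1, its signalling receptor (1.10 ± 0.29), Il1r2, its decoy receptor (0.90 ± 0.24), Il33, an alarmin of epithelia (0.85 ± 0.24), and Il1rn, the interleukin 1 receptor antagonist (0.91 ± 0.28). Chemokines had 2 of 12 higher, Cxcl16 and Ccl20 (0.84 ± 0.22), and NF-kB feedback and adhesion genes 5 of 12, among them Tnfaip3, an inhibitor of NF-kB (0.98 ± 0.26). Over all genes 10.5% were higher, and in a list of this size the chemokine count is near that share. Tnf, Osm and Il10, cytokines of other families, rose by 0.70 ± 0.17, 0.47 ± 0.12 and 0.80 ± 0.23. Under duodenal reflux 5 of the 44 were higher, against 1.19% of all genes, with a median of 0.63. The median was -0.02 without reflux and 0.86 with mixed reflux. The difference of Nfkbiz exceeded that under duodenal reflux by 1.78 (limma, adjusted p = 0.0467). The count of higher cytokine genes was 4 without wild-type array 2, 4 without wild-type array 3 and 5 under median centring, and with the day and muscle terms the median was 0.47 and 0 passed.

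Markers of neutrophils and alarmins had 3 of 15 tested higher, against 10.5% of all genes. The count was 1 without wild-type array 2, without wild-type array 3, with slide as a random block and under median centring. Their mean log2 ratio was 0.20, 0.22 and 0.33 in wild type and 1.49, 0.65 and 0.57 in Nrf2-null, so Nrf2-null array 1 stood highest. S100a8, an alarmin of neutrophils and stressed keratinocytes, read 0.30, -0.98 and -0.24 against 2.65, 3.23 and 1.49 and rose by 2.77 ± 0.79 (limma, adjusted p = 0.026), a call lost without wild-type array 2, wild-type array 3 or Nrf2-null array 2. Macrophage markers averaged 2.05, 1.69 and 1.84 in wild type and 1.20, 1.16 and 2.55 in Nrf2-null, and 1 of 13 was higher, the complement gene C1qc (0.72 ± 0.23). Of 14 T and NK cell markers 1 was higher, Lck (1.28 ± 0.32), and of 8 dendritic and class II genes 1 was, H2-Ab1 (0.70 ± 0.22). A single gene in lists of this size is near the 10.5% of all genes called higher, and each of the 3 calls was lost without wild-type array 2 and without wild-type array 3. C1qc and H2-Ab1 also lost it with slide as a random block and with the replicate block, and without Nrf2-null array 1, and C1qc and Lck without Nrf2-null array 3. In bulk tissue fewer cells of a type and less RNA per cell cannot be told apart. The part of these cells in the cytokine values was not tested.

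Interferon-stimulated genes stood out on 1 array. For all 17 genes Nrf2-null array 3 was the highest of the 6 arrays. Isg15, a ubiquitin-like modifier, read -0.62, -2.29 and -1.48 in wild type and -1.97, -1.55 and 3.06 in Nrf2-null, and Oasl2, a relative of the oligoadenylate synthetases, read 0.17, -1.53 and -1.53 and -0.82, -1.87 and 4.09. Arrays 1 and 2 of the Nrf2-null group lay below the highest wild-type array for both genes. The median over the list was 1.37 with all arrays, 0.02 without Nrf2-null array 3 and -0.01 with the day and muscle terms. Oasl1 (1.99 ± 0.40) passed. Slfn4, not well above background on any wild-type array and measured on 2 of 3 Nrf2-null arrays, was at least 5.51-fold higher (limma, adjusted p = 0.0265), and no other gene of the list passed. The 2 calls among 17 genes are near the 10.5% of all genes called higher.

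Genes of the stressed or wounded epithelium were higher in 8 of 18 cases and lower in 0, against 10.5% of all genes higher, with a median of 0.66. Upk3bl, a uroplakin-like membrane protein, read 1.50, 1.39 and 2.03 in wild type and 4.62, 4.23 and 3.52 in Nrf2-null. The groups were more than 1 log2 unit apart, and it rose by 2.48 ± 0.29, or 5.58-fold (limma, adjusted p = 0.000434). Its genotype difference was 0.29 with duodenal reflux and -0.17 without reflux, and both contrasts with gastric reflux passed (limma, adjusted p = 0.0244 and 0.0237). Krt16, a keratin of wounded epidermis, read 3.17, 1.56 and 2.54 against 4.20, 4.42 and 5.24 and rose by 2.19 ± 0.47 (limma, adjusted p = 0.00748), but with the day block it stood at 0.76. Plac8 rose by 3.06 ± 0.62, from -0.73, -1.91 and -1.29 to 0.14, 1.37 and 3.75, with Nrf2-null array 3 highest. Hbegf and Areg, ligands of the EGF receptor, rose by 1.41 ± 0.28 and 1.46 ± 0.38, Plau, the urokinase, by 1.29 ± 0.32, Mmp13, a collagenase, by 1.16 ± 0.36 and Krt6a, a partner of Krt16, by 0.74 ± 0.24. The count was 4 without wild-type array 2 and 4 without wild-type array 3. Under duodenal reflux 4 of the 18 were higher, against 1.19% of all genes, with a median of 0.80. The list median was 0.26 without reflux and 1.16 with mixed reflux.

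Of 28 tested genes of squamous differentiation 6 were higher and 1 lower, against 10.5% and 7.19% of all genes, with a median of 0.74, and on 18 of them all Nrf2-null arrays lay above all wild-type arrays, against 18.8% of all genes. Krt13, the keratin of suprabasal oesophageal cells, read 5.13, 4.91 and 5.06 in wild type and 7.24, 5.67 and 6.03 in Nrf2-null and rose by 1.28 ± 0.32 (limma, adjusted p = 0.0151). Small proline-rich proteins, which are crosslinked into the cornified envelope, were among the higher genes: Sprr2h by 2.36 ± 0.50, Sprr2d by 1.63 ± 0.36 and Sprr2a1 by 1.01 ± 0.16. These paralogues are nearly alike in sequence and their probes may share targets. Krt10, the suprabasal keratin of skin, fell by 0.90 ± 0.27. Under median centring 13 were higher, and without wild-type array 2 or 3 it was 2 and 3. The list median was 0.58 with duodenal reflux, -0.19 without reflux and 0.008 with mixed reflux.

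Of 15 basal keratinocyte genes 2 were higher, near the 10.5% of all genes. Krt15, a keratin of basal cells, rose by 0.92 ± 0.23. Dst, a linker of hemidesmosomes, rose by 1.15 ± 0.26 on its brightest probe, but the mean over its probes gave -0.74. Junction genes had 5 of 26 higher and 1 lower, against 10.5% and 7.19% of all genes. The tight junction proteins Cldn7, Cldn4 and Cldn3 rose by 1.15 ± 0.28, 0.83 ± 0.22 and 0.66 ± 0.17. The desmosomal cadherin Dsc2 rose by 0.84 ± 0.21 and Cldn12 fell by 0.53 ± 0.18. Without wild-type array 2 the counts were 0 and 0. Columnar and intestinal genes had 1 of 15 higher, the mucosal peptide Tff3 (0.79 ± 0.26), and 1 lower, Krt18, a keratin of simple epithelia (-0.86 ± 0.21). In a list of this size both counts are near the 10.5% and 7.19% of all genes. Tff3 lost its call without wild-type array 2 or 3 and without Nrf2-null array 1 or 3. The Tff3 call was also lost with the replicate block, from the scanner log ratios, with no filter and with slide as a random block. The mean of the stomach markers was 0.63, 0.29 and 0.15 in wild type and 0.24, 0.54 and 0.39 in Nrf2-null, so the groups overlapped.

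Of 20 non-collagen matrix genes of the lamina propria 7 were lower and 0 higher, against 7.19% of all genes lower, with a median of -0.87, and of 16 collagens 5 were lower and 0 higher, with a median of -1.13. Cilp, a matrix protein of fibrous tissue, read 4.20, 5.30 and 5.23 in wild type and 1.84, 0.28 and 2.42 in Nrf2-null, with no overlap, and fell by 3.40 ± 0.80, or 10.5-fold (limma, adjusted p = 0.011). Its call was lost without wild-type array 2, from the scanner log ratios and from the table deposited by the authors. Fbln2, of the elastic fibre, fell by 1.59 ± 0.25, Fbn1, the main fibrillin of microfibrils, by 1.96 ± 0.47, and Ogn, a small leucine-rich proteoglycan, by 1.33 ± 0.29. Dcn, decorin, a binder of collagen fibrils and a fibroblast marker, read 2.51, 2.34 and 2.78 against -0.20, -0.34 and 1.02 and fell by 2.39 ± 0.70 (limma, adjusted p = 0.0315). Among collagens, the basement membrane chain Col4a2 fell by 1.15 ± 0.27, Col8a1 by 1.77 ± 0.45, Col6a2 by 1.17 ± 0.32 and Col5a1 by 1.11 ± 0.35.

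A list of 15 matrix proteases and inhibitors had 6 lower and 0 higher, against 7.19% of all genes lower. Mmp13 and Plau, proteases kept in the stress list, rose. The 6 lower genes were 3 without wild-type array 2, 2 without wild-type array 3, 2 without Nrf2-null array 2 and 3 with slide as a random block. Timp2, an inhibitor of matrix metalloproteinases, read 0.43, 0.14 and 0.68 in wild type and -2.07, -3.81 and -2.15 in Nrf2-null. No array of either group came near the other group, and it fell by 3.10 ± 0.58, or 8.56-fold (limma, adjusted p = 0.00485), against -1.58 with the day and muscle terms. Timp3, the matrix-bound inhibitor, read -0.11, 0.27 and 0.40 against -2.84, -3.01 and -1.96 and fell by 2.79 ± 0.44 (limma, adjusted p = 0.00241). Mmp14, a membrane-type metalloproteinase, fell by 1.10 ± 0.29, and Adamts5, which cleaves proteoglycans, by 1.11 ± 0.33.

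Fibroblast markers had a mean of 1.37, 1.03 and 1.44 in wild type and -0.07, -0.89 and 0.75 in Nrf2-null, without overlap. Of 10 fibroblast markers 2 were lower by the test, against 7.19% of all genes. The count was 0 without wild-type array 2, wild-type array 3 or Nrf2-null array 2 or with slide as a random block. Endothelial markers averaged 3.13, 3.22 and 3.41 against 2.81, 1.98 and 2.58, also without overlap, and 4 of 12 were lower, against 7.19% of all genes. They were Pecam1, a junction protein of endothelium (-1.53 ± 0.35), Cdh5, its cadherin (-1.52 ± 0.41), Tek, the angiopoietin receptor (-1.99 ± 0.60), and Kdr, a VEGF receptor (-1.42 ± 0.46). Lyve1, a marker of lymphatic endothelium, fell by 2.85 ± 0.80. Its call was lost without wild-type array 2 or 3, without Nrf2-null array 1 or 2, and from the scanner log ratios and the deposited table. The part of tissue composition in the matrix differences was not tested.

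The median of the matrix list was 0.42 with duodenal reflux, 0.44 without reflux and 0.13 with mixed reflux. For 3 of the 20 matrix genes the gastric difference was below the duodenal one, against 0.725% of all genes. For 5 it was below that without reflux, against 0.734%. Fbln2 was among both (limma, adjusted p = 0.0179 and 0.0125). With the day and muscle terms all 20 matrix differences were negative, with a median of -1.01, and 0 passed. The 7 lower matrix genes were 2 without wild-type array 2, 3 without wild-type array 3 and 4 without Nrf2-null array 2, and the 5 lower collagens were 1, 0 and 1. The endothelial count was 1 without any 1 of those 3 arrays. It was also 1 from the scanner log ratios, from the deposited table and with slide as a random block.

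**Figure D4:**
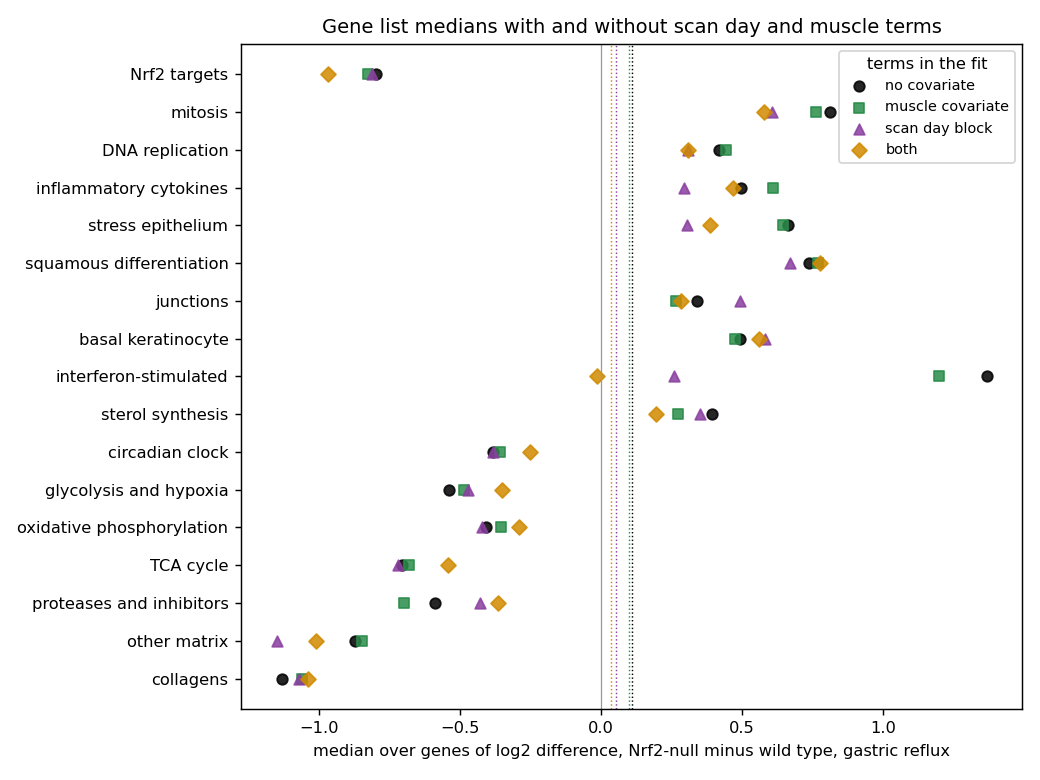
Median genotype difference (log2, horizontal axis) of 17 gene lists under gastric reflux in 4 fits: none added, scan day block, muscle covariate and both, with dotted lines at the median of all genes in each. Nrf2 targets stay between -0.80 and -0.97 in the 4 fits and mitosis between 0.58 and 0.81, whereas the interferon median goes from 1.37 to -0.01.

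Mitochondrial and glycolytic genes, which striated muscle expresses strongly, included lower members. Of 19 genes of the TCA cycle 8 were lower (7 with the muscle covariate), against 7.19% of all genes, with a median of -0.71. Mdh2 and Ogdh, enzymes of the cycle, fell by 1.27 ± 0.25 and 1.21 ± 0.28. Of 61 genes of oxidative phosphorylation 11 were lower, against the same 7.19%, with a median of -0.41. Among them was Uqcrfs1, the iron-sulfur subunit of complex III (-1.11 ± 0.21). With the muscle covariate 10 of the 61 were lower and 2 higher, against 9.37% and 11.3% of all genes. Without wild-type array 1, which was low in muscle, 27 of the 61 were lower, and without wild-type array 2 or 3 it was 1 and 2. Under median centring the oxidative phosphorylation count was 0 and the TCA cycle count 2. The TCA cycle counts without those 3 arrays were 11, 2 and 2. Of 23 glycolysis and hypoxia genes 6 were lower and 1 higher, against 7.19% and 10.5% of all genes. The 6 were 9 with the muscle covariate, 11 without wild-type array 1, 3 without wild-type array 2 and 3 without wild-type array 3. Gapdh read -1.13, 0.55 and 0.58 in wild type and -2.22, -2.35 and -1.91 in Nrf2-null and fell by 2.16 ± 0.40 (limma, adjusted p = 0.00533). Hk2, hexokinase 2, fell by 1.45 ± 0.28. Adm, adrenomedullin, a hypoxia-induced vasodilator, fell by 1.62 ± 0.32 and passed with the day and muscle terms (-1.97, limma, adjusted p = 0.0103).

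Clock genes had 5 of 16 lower and 1 higher, against 7.19% and 10.5% of all genes. Without wild-type array 2 the counts were 3 and 0, and with the day block 0 and 0. Nr1d1, the repressor REV-ERB alpha, read 2.62, 2.62 and 2.91 in wild type and 0.71, 1.68 and 1.63 in Nrf2-null, without overlap, and fell by 1.37 ± 0.24 (limma, adjusted p = 0.00285). Dbp and Tef, output factors of the clock, fell by 0.98 ± 0.20 and 0.88 ± 0.18, and Nr1d2, the relative of Nr1d1, by 0.72 ± 0.16. For Nr1d1, Nr1d2 and Dbp the difference departed from that without reflux (limma, adjusted p = 0.0298, 0.0459 and 0.0475). The labels used here do not state the hour at which tissue was taken.

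Sterol synthesis had 2 of 17 higher, Lss, which closes the sterol rings (1.08 ± 0.21), and Nsdhl (0.80 ± 0.21). Unfolded protein and heat shock genes had 3 of 18 higher, among them the chaperone Hyou1 (1.07 ± 0.35), and 1 lower, Chac1, which degrades glutathione (-1.33 ± 0.31). The p53 and apoptosis list had 3 of 18 higher, led by Plk2 (1.53 ± 0.36), and 1 lower, Trp53inp1 (-1.23 ± 0.24). Retinoid genes had 1 of 15 higher, Rdh12, a retinal reductase (0.84 ± 0.20), and 1 lower, Cyp26b1, which degrades retinoic acid (-0.84 ± 0.24). In lists of this size, the counts in this paragraph lie near the 10.5% of all genes called higher and 7.19% called lower. Hyou1 lost its call when any single array other than Nrf2-null array 2 was left out. Cyp26b1 lost its call when any single array other than Nrf2-null array 1 was left out.

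Some of the largest differences lay outside these lists. Rbm45, an RNA-binding protein whose gene lies near Nfe2l2 on chromosome 2, read -1.78, -2.26 and -2.08 in wild type and 0.61, 1.80 and 1.54 in Nrf2-null, a rise of 3.36 ± 0.26, or 10.2-fold (limma, adjusted p = 1.88e-06). It was the single gene called higher with the day and muscle terms, and its difference was 2.89 with duodenal reflux and 3.00 without reflux. Among 13 tested genes near Nfe2l2, Rbm45 was higher and Atp5g3, a subunit of ATP synthase, was lower (-1.03 ± 0.22). These counts are near the 10.5% of all genes called higher and 7.19% called lower. Atp5g3 lost its call with the day block and under median centring. Apol7a, of the apolipoprotein L family, rose by 2.51 ± 0.50, Ankk1 by 2.50 ± 0.54 and Vnn1, pantetheinase, by 2.17 ± 0.55. Acyp2, the muscle acylphosphatase, read 0.90, 4.11 and 3.97 against 0.88, -0.31 and -0.80, with wild-type array 1 just above Nrf2-null array 1. It fell by 3.07 ± 0.64 and passed with the day and muscle terms (-2.29, limma, adjusted p = 0.0467). Synm, an intermediate filament protein of muscle, fell by 3.20 ± 0.68 and Tspan13, a tetraspanin, by 3.73 ± 0.80.

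Genes whose genotype difference under gastric reflux departed from another condition numbered 163 higher and 149 lower against duodenal reflux (0.793% and 0.725% of genes) and 216 higher and 151 lower against no reflux (1.05% and 0.734%). Fkbp5, a cochaperone of steroid receptors, read -0.41, -0.20 and -0.16 in wild type and -1.72, -1.78 and -1.63 in Nrf2-null. The arrays of each group lay close together without overlap, and it fell by 1.45 ± 0.13 (limma, adjusted p = 1.85e-05), against -0.12 with duodenal reflux and -0.12 without. Fkbp5 lost its call with the mean over its probes and with the day block. Esco2 and Kif18a, of chromatid cohesion and the mitotic spindle, rose by 1.40 ± 0.20 and 1.03 ± 0.18, and stood at -0.40 and -0.57 with duodenal reflux. Kif20b, another kinesin, rose by 1.27 ± 0.19, but the mean over its probes gave -0.17. Cd163, a scavenger receptor of macrophages, stood at -0.05 with gastric and 3.52 with duodenal reflux. The gastric value came from 4.54, 4.42 and 4.56 in wild type and 5.16, 3.29 and 4.92 in Nrf2-null, and without Nrf2-null array 2 it was 0.53 and in the other direction.

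**Figure D5:**
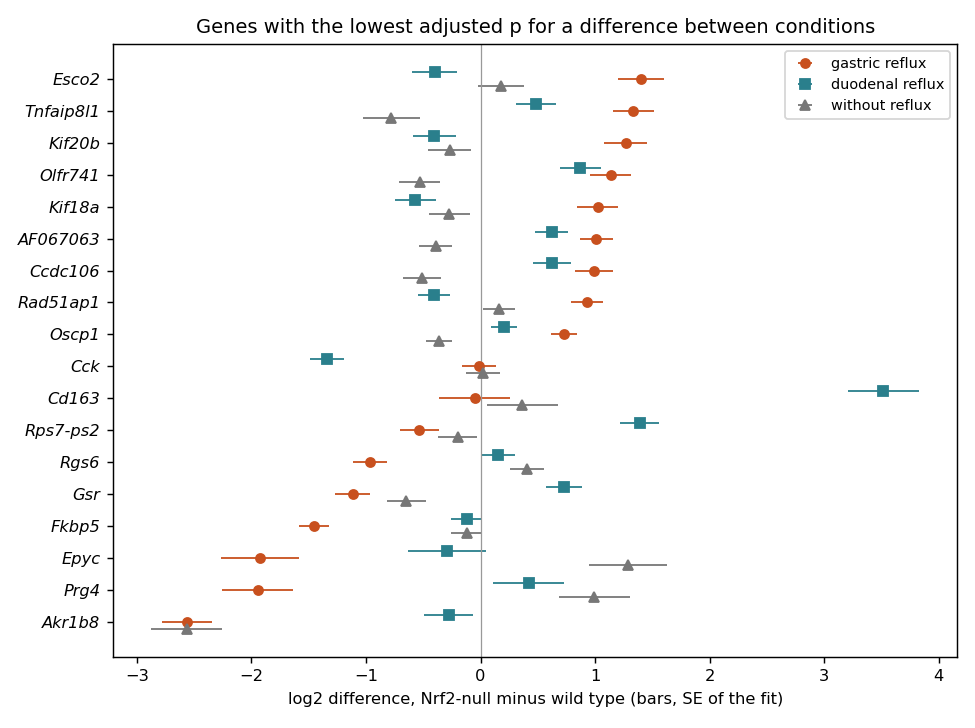
Genotype difference (Nrf2-null minus wild type, log2, horizontal axis) with its standard error for 18 genes in each of 3 conditions: no reflux, gastric and duodenal reflux. Fkbp5 lies below 0 with gastric reflux and closer to 0 in the other conditions, and Cd163 lies near 0 with gastric but at 3.52 with duodenal reflux.

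The duodenal comparison shares no array with the gastric one. However, Nrf2-null arrays 2 and 3 with gastric reflux lay on 1 slide with Nrf2-null arrays 1 and 2 with duodenal reflux. The part of a shared slide in the shares below was not tested. Of the genes higher under gastric reflux 74.3% had the same sign in the duodenal comparison, against 55.5% of all genes, and of those lower 60.2%, against 44.5%. The comparison without reflux shares no array with the gastric one either, but its array 3 of each genotype shared a slide with gastric arrays of that genotype. There the same shares were 52.2% against 54.5% for higher and 50.4% against 45.5% for lower genes. With mixed reflux they were 59.4% against 50.5% and 61% against 49.5%. Called under both gastric and duodenal reflux were 82 higher genes (3.81% of the gastric and 33.5% of the duodenal calls) and 37 lower genes (2.5% and 26.4%).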

How the data were processed

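Whole-oesophagus RNA was set against reference RNA on 24 Agilent two-colour arrays, with 3 arrays in each of 8 groups and no dye swap. The deposited scanner files hold spot intensity for Cy5 and Cy3, and log10 ratios from the scanner software (Feature Extraction 10.7.3.1, probe annotation mm9, on these 6 arrays), per the file headers. Version 9.1 of Agilent Feature Extraction stands in the submitters' processing notes. A table deposited by the authors holds log2 ratios. Its columns for these 6 arrays have a median of 0 and correlate at 0.909 to 0.940 with the scanner ratios in the same direction, and how it was centred is unknown.

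From the intensities, backgrounds were corrected with normexp (offset 50) and arrays normalised by loess in limma 3.58.1 under R 4.3.3. Outlying local backgrounds were replaced by the median of the array, a choice made after seeing the data. Control and outlier spots were left out, the brightest probe stood for a gene, and 20563 genes were tested whose probe stood well above the Cy5 background throughout 1 group or more. A mean was fitted for each of the 8 groups over 22 samples, since the 3 Nrf2-null arrays with mixed reflux repeated each other and were averaged, also decided after seeing the data. Tests used eBayes with Benjamini-Hochberg adjustment at 0.05. Precision is limited by 3 arrays a group.

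Members and gene lists were chosen with earlier results of these data known. Named genes are Nfe2l2, Keap1 and small Maf genes, all Nrf2 targets that passed, the 10 largest rises and falls without overlap between groups, those that also passed with scan day and muscle in the fit, up to 4 passing members of each list by adjusted p, defining markers, and the 5 lowest adjusted p each way for each contrast between conditions. One gene that this rule chose is not reported here. Further list members are given to describe their list. Alternatives covered scan day, muscle content, slide, replicate number, normalisation, background, filters, probe choice and each array left out. Of the arrays with mixed reflux only list medians and shared signs are given.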

Additional observations from a re-analysis of the deposited data

Results flagged for a closer look

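Among the genes named here, 29 had a genotype difference under gastric reflux that departed from the one under duodenal reflux, and 30 had one that departed from the one without reflux, by limma's test of the difference between the conditions at an adjusted p below 0.05. Many of these genes were chosen by that test, so their number says nothing of how common such genes are. Each value is the gastric difference minus the other, on the log2 scale.

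Against duodenal reflux the positive values were 3.01 for Akr1c18, 2.19 for Upk3bl, 1.80 for Esco2, 1.78 for Nfkbiz, 1.75 for Lss, 1.67 for Kif20b, 1.59 for Kif18a, 1.34 for Rad51ap1 and 1.32 for Cck. Further positive values were 1.30 for Nuf2, 1.27 for Bub1 and 1.04 for Sprr2a1. Negative values there were -0.95 for Mafk, -1.12 for Rgs6, -1.13 for Aldh1a1, -1.21 for Dbp, -1.33 for Fkbp5, -1.64 for Hk2, -1.85 for Gsr and -1.92 for Rps7-ps2. The remaining ones were -2.02 for Fbln2, -2.13 for Col5a1, -2.13 for Ogn, -2.28 for Akr1b8, -2.37 for Prg4, -2.66 for Timp3, -2.81 for Fbn1, -2.89 for Col8a1 and -3.57 for Cd163. With a scan day block 0 genes of the whole table differed from duodenal reflux at that threshold, 995 had an unadjusted p below 0.05, and the part of scan day in these values was not tested further.

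Against no reflux, positive values were 2.65 for Upk3bl, 2.11 for Tnfaip8l1, 1.86 for Cenpa, 1.82 for Plau, 1.67 for Olfr741, 1.62 for Dst, 1.54 for Kif20b, 1.51 for Bub1 and 1.51 for Ccdc106. To these came 1.40 for AF067063, 1.34 for Aurkb, 1.30 for Kif18a, 1.28 for Lss, 1.26 for Nuf2, 1.22 for Esco2, 1.09 for Oscp1 and 1.09 for Ccne1. The negative values were -0.96 for Nr1d2, -1.33 for Fkbp5, -1.36 for Krt18, -1.37 for Rgs6, -1.45 for Dbp, -1.75 for Nr1d1 and -2.03 for Fbln2. Lower values still were -2.94 for Prg4, -2.98 for Fbn1, -3.00 for NAP102507-1, -3.21 for Epyc, -4.58 for Lyve1 and -4.91 for Cilp. Fkbp5, Upk3bl, Fbln2, Fbn1, Prg4, Rgs6, Dbp, Lss, Bub1, Nuf2, Kif18a, Kif20b and Esco2 appear against both conditions, which share the gastric arrays.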

How the results depend on the processing

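The main limit is scan day, which cannot be told apart from genotype within the 6 arrays. Few genes passed where it was fitted through the Nrf2-null arrays without reflux, of which only array 3 was scanned on day 3. The 3633 genes called were 4 with the day block, 13 with day and muscle, 1 from the 6 arrays alone, 2039 under median centring, 2175 with slide as a random block (chosen after seeing the data) and 1040 to 5073 without 1 array. The 28 lower Nrf2 targets were 2, 6, 0 and 17 under the first 4 of these, and 23 to 32 without 1 array. The cause of these shifts was not tested.

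For same-numbered samples of the 2 groups, the deviations of genes from their group means correlated at -0.33, -0.15 and -0.28. Those deviations also carry the differences in muscle content between arrays, so they cannot decide whether the replicate number paired samples. With the replicate block 3086 genes and 28 targets were called, 109 genes differed from duodenal reflux and 142 from no reflux.

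The 312 genes that differed from duodenal reflux were 0 with the day block, 636 with the muscle covariate, 1 with both, 135 from the scanner log ratios, 4 under median centring, 151 from the deposited table, 955 with repeat arrays kept separate, 52 with random slides, 118 with local backgrounds as read and 21 to 2777 without 1 array. The 367 that differed from no reflux were 10 with the day block, 11 with both, 3241 with slide as a fixed block, 217 from the scanner log ratios, 1639 under median centring, 177 from the deposited table, 1178 with repeat arrays separate, 132 with random slides, 2545 with local backgrounds as read and 46 to 2085 without 1 array. A fixed slide block could not be estimated for the other comparisons.

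Of 132 named genes that passed, 79 also passed without each array in turn. Without wild-type array 2 or 3, 44 and 42 lost the call. With the mean over probes 13 named genes lost the call, and Dst (-0.74) and Kif20b (-0.17) changed sign. Of the called genes with several probes, 33.6% of 729 higher and 26.5% of 607 lower ones had another probe of opposite sign. Cd163 ran from -0.40 to 0.53 over the omissions, with the positive value without Nrf2-null array 2.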
